A study of Homo sapiens with 12 samples.

Results

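The protein part of the cytosolic ribosome was followed at the mRNA level through irradiation and CRISPR editing of the interleukin-1 receptor chains in MCF10A cells, an established human line from mammary epithelium that forms no tumours. The set was chosen by symbol alone: every protein-coding gene in the table whose name begins with RPL or RPS and follows the nomenclature of cytosolic ribosomal proteins, with RPSA and the stalk genes RPLP0, RPLP1 and RPLP2, and without the RPS6K kinases. This rule found 86 of 60675 genes. Of these, 77 encode canonical subunits, 31 in the small and 46 in the large subunit, and 9 are paralogs. The 12 libraries formed 6 groups of 2 biological replicates: wild-type cells (WT), cells with an IL1R1 guide (IL1R1-KO) and cells with an IL1RAP guide (IL1RAP-KO), each either untreated or irradiated once with 20 Gy, the latter marked RT. IL1R1 binds interleukin-1 and IL1RAP is its accessory chain. KO cells were puromycin-selected pools made with a lentiviral CRISPR vector, not clones, and all groups grew with epidermal growth factor, cholera toxin, insulin, hydrocortisone and horse serum. Neither the guide carried by each KO library nor the time between irradiation and RNA extraction was given in the sources used here.

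Each cytosolic ribosome holds one copy of nearly every one of these proteins, and their mRNAs are among the most abundant of a growing cell. Most of these mRNAs begin with a run of pyrimidines directly at the cap, the 5′ terminal oligopyrimidine (5′ TOP) tract, through which mTORC1 and LARP1 set their translation and stability. When assembly is disturbed, the complex of RPL5, RPL11 and 5S rRNA is known to bind MDM2 and so stabilise p53, which is also induced by ionizing radiation.

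The starts of the genes with the strongest responses are printed to show how alike they are at the cap. RefSeq start sequences (GRCh38.p14) were at hand for 69 of the 86 genes. Each sequence covers 30 bases on the strand of the gene, 10 before the annotated start and 20 from it, and capitals mark an unbroken run of C and T that opens with a C at the start itself and has at least 4 further pyrimidines. Where RefSeq lists more than 1 start, the one with such a run is shown. The first 4 genes were those that fell most after irradiation and the other 4 those that rose in WT.
RPL22L1 (chr3:170870176-170870205, minus strand): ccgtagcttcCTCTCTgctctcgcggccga
RPL10A (chr6:35468391-35468420, plus strand): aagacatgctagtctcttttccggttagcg
RPL3 (chr22:39319604-39319633, minus strand): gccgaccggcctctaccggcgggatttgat
RPS9 (chr19:54200848-54200877, plus strand): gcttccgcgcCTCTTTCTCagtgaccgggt
RPS19 (chr19:41860245-41860274, plus strand): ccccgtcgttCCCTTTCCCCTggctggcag
RPS27L (chr15:63157458-63157487, minus strand): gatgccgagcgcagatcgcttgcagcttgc
RPS27 (chr1:153990752-153990781, plus strand): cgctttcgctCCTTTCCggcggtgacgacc
RPL36 (chr19:5690285-5690314, plus strand): cggcgccagcCCTTCCgccacggccgtctc
Pyrimidine runs of this kind stood in both groups, at RPL22L1 and RPS9 among the genes that fell and at RPS19, RPS27 and RPL36 among those that rose. In the windows shown for RPL10A and RPL3 a pyrimidine stretch lies close to the start without meeting the definition. Of the canonical genes with a start sequence, 46 of 62 (74.2%) had such a run, against 5.14% of all 27305 genes with a start sequence. A match at an annotated start describes those letters only, since cap positions were not measured.

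Values are TPM, a share per length within a library, after trimmed-mean scaling between libraries (scaled TPM), and depth was unknown because no counts were at hand. Irradiated libraries carried far more mitochondrially encoded RNA, 36.9% to 57.0% of TPM against 18.3% to 21.1% in untreated libraries, and replicate 2 of IL1RAP-KO RT stood apart at 57.0%. IL1RAP was at 4.41 and 4.97 scaled TPM in untreated IL1RAP-KO libraries against 18 and 20.7 in WT. IL1R1 was at 11.0 and 7.81 in the libraries labelled IL1R1-KO against 10.7 and 9.46 in WT, so its level does not check that label, and an edited gene can keep its transcript level. IL1R1-KO is therefore used as the label of those libraries. Basal mammary markers (7 of 7 genes with a mean of at least 1) summed to 3571 to 4471 scaled TPM untreated and 1957 to 3111 after RT, luminal markers (4 of 7) to 436 to 486 and 245 to 288, and the 2 epithelial markers to 197 to 209 and 78.9 to 115. Fibroblast (1 of 7), leukocyte (2 of 6) and endothelial markers (2 of 5) summed to at most 23, 21.8 and 5.05 untreated and to 43.1 to 91.0, 29.2 to 78.4 and 7.46 to 11.0 after RT, with 2 of 7, 2 of 6 and 3 of 5 at a mean of at least 1 then and COL1A2 at 0 in every library. The part of these markers in the results was not tested. In bulk RNA, fewer cells of a kind and less RNA per cell cannot be told apart.

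The share of the transcriptome given to ribosomal protein mRNA was lower after irradiation in every genotype. The 86 genes held 16% to 16.7% of all TPM in the 6 untreated libraries. This share was 12.3% and 11.2% in WT RT, 9.29% and 9.50% in IL1R1-KO RT, and 9.96% and 7.02% in IL1RAP-KO RT, so that the irradiated and untreated libraries did not overlap. The mitochondrial share rose in the same libraries and lowers the share of everything else. Against nuclear protein-coding TPM alone, the ribosomal protein genes held 20.8% to 21.4% untreated, 20.6% and 18.4% in WT RT, 16.3% and 16.9% in IL1R1-KO RT, and 19% and 17.2% in IL1RAP-KO RT. On this denominator the first WT RT library lay just below the lowest untreated library, and both IL1R1-KO RT libraries lay below all others.

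**Figure D1:**
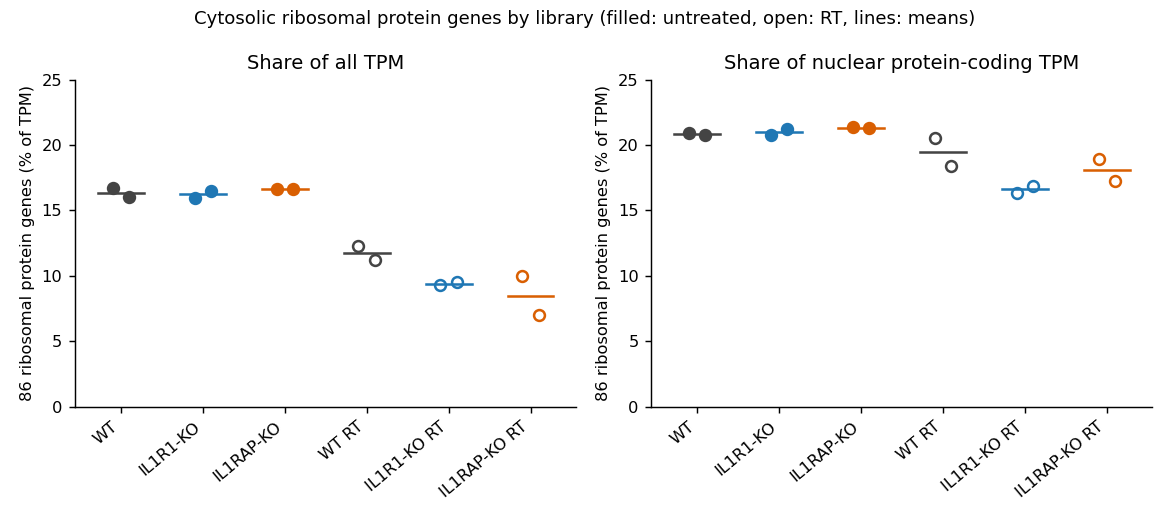
Share of TPM held by the 86 ribosomal protein genes in each of the 12 libraries (points; lines are means of 2), as percent of all TPM (left) and of nuclear protein-coding TPM (right). Untreated libraries sit at 16% to 16.7% and 20.8% to 21.4%, and the lowest values are 7.02% (IL1RAP-KO RT replicate 2, left) and 16.3% (IL1R1-KO RT replicate 1, right).

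RPS27 had the highest mean over all libraries, followed by RPS18 and RPS24, and RPL39L, RPL7L1 and RPL26L1 had the lowest among the 82 genes that passed a filter of 1 TPM in at least 2 libraries. RPL3L, RPL10L, RPS4Y1 and RPS4Y2 did not pass it. All 77 canonical genes passed. Over these 77, the log2 ratio of replicate 2 to replicate 1 had an SD of 0.0460 to 0.101 in 5 groups and of 0.284 in IL1RAP-KO RT, where it ranged from -0.93 for RPS9 to 0.35 for RPL36A. Single genes also differed between untreated replicates, by -0.41 for RPS29 in WT and 0.43 for RPL14 in IL1R1-KO at the extremes.

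In WT cells, the response to 20 Gy was mixed. Of the 82 genes tested, 29 fell and 4 rose (limma, Benjamini-Hochberg adjusted p under 0.05), and the median log2 fold change was -0.25, or a fold of 0.838. Across all 15303 genes tested, 23.7% fell and 19.8% rose, with a median of 0. Among the 99 other genes at least as abundant, by the mean over all libraries, as the lowest canonical member, 52.5% fell, with a median of -0.39. These 99 were not limited to nuclear genes. Abundant mitochondrially encoded mRNAs, most of which rose after irradiation, were not left out of them in any genotype. Past a fold change of 2 there was 1 ribosomal protein gene, RPL22L1, which fell, against 6.23% of all genes. The small subunit gave 12 lower and 2 higher of 31, and the large subunit 16 lower and 1 higher of 46. The count of lower genes was 19 without WT replicate 1 and 18 without WT RT replicate 2, and that of higher genes was 2 without WT replicate 1, WT replicate 2 or WT RT replicate 1. The median was -0.10 without WT RT replicate 2.

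In both KO lines, nearly the whole set fell. In cells labelled IL1R1-KO, 75 of 82 genes were lower and none higher, with a median log2 fold change of -0.86 (a fold of 0.550), and 26 fell past 2-fold. One of the 75, RPL39L, passed the filter only through untreated libraries. Across all genes, 26.1% fell, 22% rose and 8.35% fell past 2-fold, and 61.6% of the 99 other abundant genes fell, with a median of -0.65. In IL1RAP-KO, 72 fell and 1 rose, with a median of -0.73 (a fold of 0.604) and 18 past 2-fold, against 27.3%, 22.7% and 9.33% of all genes. Of the 99 other abundant genes 61.6% fell here too, with a median of -0.50. Without the replicate 2 library of IL1RAP-KO RT, 67 fell and the median was -0.58. The lower counts were 67 to 78 in IL1R1-KO and 58 to 73 in IL1RAP-KO when any 1 library was left out. In the small subunit 29 and 28 of 31 fell, and in the large subunit 43 and 42 of 46. All 29 genes lower in WT were also lower in both KO lines, where 17.9% of all genes tested were lower in the 3 genotypes. None of the set was higher in all 3, against 12.1%.

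**Figure D2:**
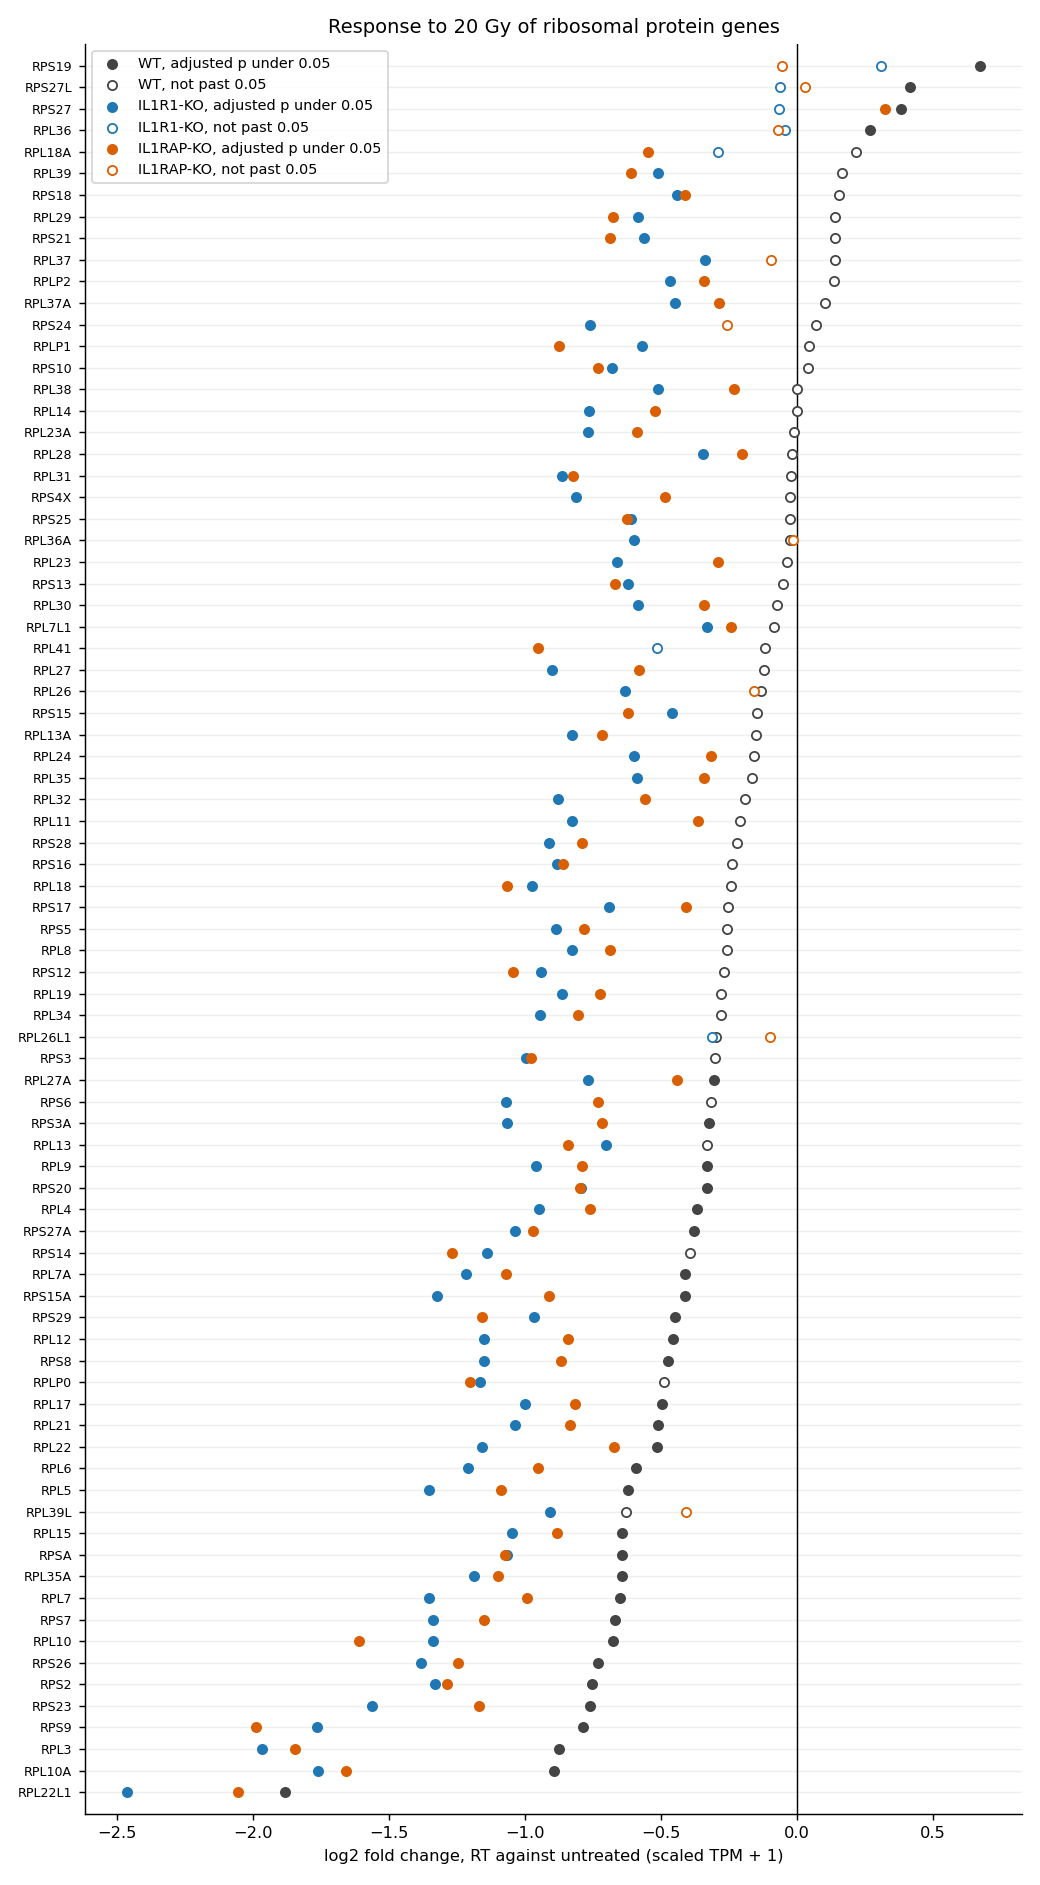
Log2 fold change (scaled TPM + 1) of RT against untreated for each gene shown, ordered by the WT value, with WT in grey, IL1R1-KO in blue and IL1RAP-KO in orange, and filled points for an adjusted p under 0.05. RPL22L1 lies lowest in each genotype at -1.88, -2.46 and -2.06, and RPS19 is highest in WT at 0.67.

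The size of these changes depends on the scaling. With TPM as deposited, the median of all genes itself moved by -0.21 in WT, 0.03 in IL1R1-KO and -0.28 in IL1RAP-KO, and with scaling to nuclear protein-coding TPM it moved by 0.10, 0.40 and 0.33. Relative to that shift, the median of the ribosomal protein genes was -0.30, -0.86 and -0.79 with deposited TPM and -0.23, -0.78 and -0.65 with nuclear protein-coding scaling, next to -0.25, -0.86 and -0.73 as reported. The split of calls moved as well, to 51 lower and 0 higher in WT with deposited TPM, and to 49 lower and 4 higher in IL1R1-KO and 46 lower and 6 higher in IL1RAP-KO with nuclear protein-coding scaling.

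**Figure D3:**
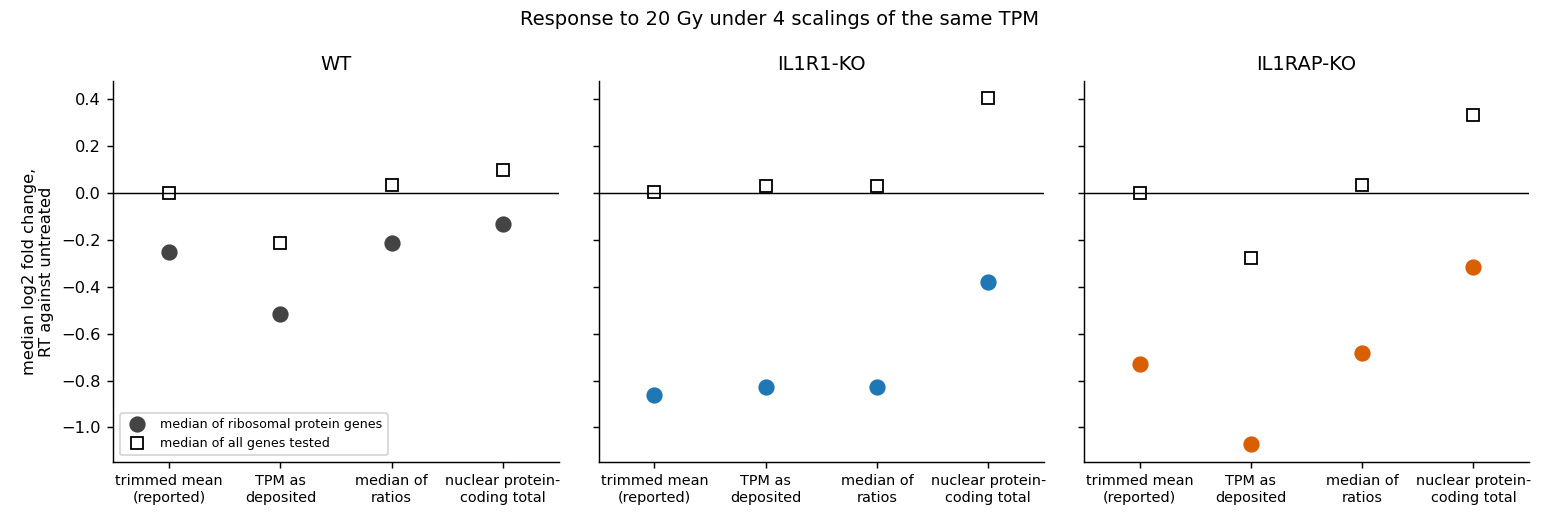
Median log2 fold change of RT against untreated over the 82 ribosomal protein genes (filled circles) and over all 15303 genes tested (open squares) under 4 scalings of the same TPM, for each genotype. The circles lie below the squares in all 12 cases, by 0.23 (WT, nuclear protein-coding total) at the least.

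RPL22L1 had the lowest log2 fold change of the set in each genotype as fitted, though RPS9 (-2.45) and RPL3 (-2.06) lay below it (-1.85) in IL1RAP-KO when the first irradiated library of that line was left out, and RPL39L, at the filter, lay below it in WT (-2.09) and IL1R1-KO (-2.51) with a pseudocount of 0.1. It is the paralog of RPL22, a protein of the large subunit known to repress it. RPL22L1 was at 675 and 704 scaled TPM in WT, 694 and 702 in IL1R1-KO and 660 and 664 in IL1RAP-KO. After irradiation it was at 194 and 178 in WT RT, 118 and 134 in IL1R1-KO RT and 138 and 182 in IL1RAP-KO RT, below every untreated library. The log2 fold changes were -1.88 ± 0.12 (SE), -2.46 ± 0.12 and -2.06 ± 0.12, with limma adjusted p-values of 2.7e-06, 4.6e-07 and 1.4e-06. RPL22 itself, at 586 to 649 untreated, was at 463 and 384 in WT RT, 281 and 291 in IL1R1-KO RT and 392 and 383 in IL1RAP-KO RT. Its fall was smaller, by log2 0.51, 1.16 and 0.67.

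Among canonical genes, RPL10A, RPL3 and RPS9 fell most. RPL10A, which forms the L1 stalk near the exit site for tRNA, was at 1408 to 1508 scaled TPM in the 6 untreated libraries, 896 and 684 in WT RT, 399 and 451 in IL1R1-KO RT and 509 and 442 in IL1RAP-KO RT. Its log2 fold changes were -0.89 ± 0.12, -1.76 ± 0.12 and -1.66 ± 0.12 (limma adjusted p 0.00034, 3.7e-06 and 5.7e-06). RPL3 reaches with a long loop toward the peptidyl transferase centre. RPL3 was at 2968 to 3117 untreated, 2004 and 1389 in WT RT, 715 and 834 in IL1R1-KO RT and 1006 and 741 in IL1RAP-KO RT, giving -0.87 ± 0.18, -1.97 ± 0.18 and -1.85 ± 0.18. RPS9, of the small subunit near the mRNA entry channel, was at 1341 to 1436 untreated, 920 and 702 in WT RT, 379 and 430 in IL1R1-KO RT and 470 and 246 in IL1RAP-KO RT. Its changes were -0.79 ± 0.24, -1.76 ± 0.24 and -1.99 ± 0.24. Each SE rests on a variance per gene pooled over all 6 groups, not on the spread of the compared libraries alone. In all 3 genes irradiated and untreated libraries did not overlap, and every KO RT library was below both WT RT libraries. The call of RPS9 in WT was lost without WT replicate 1, WT replicate 2 or WT RT replicate 2, at -0.74, -0.83 and -0.59.

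A few genes did not share the fall. RPS19, a small subunit protein needed for maturation of the 18S rRNA and often mutated in Diamond-Blackfan anaemia, was at 1265 to 1428 scaled TPM untreated and at 2268 and 2029 in WT RT, 1613 and 1611 in IL1R1-KO RT and 1668 and 1031 in IL1RAP-KO RT. It rose in WT by 0.67 ± 0.18 (limma adjusted p = 0.013), while the changes in IL1R1-KO and IL1RAP-KO, 0.31 and -0.06, did not pass the test. Both RT libraries of IL1R1-KO were above all untreated ones, and those of IL1RAP-KO lay on either side of them. RPS27, a zinc-binding protein of the small subunit, was at 5835 to 6304 untreated, 8134 and 7453 in WT RT, 5730 and 5728 in IL1R1-KO RT and 7318 and 8274 in IL1RAP-KO RT. The WT RT and IL1RAP-KO RT libraries were above all untreated ones and the IL1R1-KO RT libraries below them. RPS27 rose in WT by 0.38 ± 0.10 and in IL1RAP-KO by 0.33 ± 0.10, and its change of -0.07 in IL1R1-KO did not pass. With scaling to nuclear protein-coding genes that value was 0.42, and with deposited TPM the value in IL1RAP-KO was -0.02. RPL36, of the large subunit, was at 769 to 833 untreated, 1006 and 937 in WT RT, 738 and 789 in IL1R1-KO RT and 764 and 779 in IL1RAP-KO RT. Both WT RT libraries, and no KO RT library, were above the untreated range, and RPL36 rose in WT by 0.27 ± 0.07. With TPM as deposited none of the 4 rises in WT passed the test, at 0.41 for RPS19, 0.15 for RPS27L, 0.12 for RPS27 and 0.01 for RPL36. The call of RPS19 in WT was lost without WT replicate 2 (0.59) or WT RT replicate 1 (0.60), that of RPS27 without WT replicate 1 (0.35), and that of RPL36 without WT replicate 1 (0.30), WT replicate 2 (0.25) or WT RT replicate 1 (0.22). In IL1RAP-KO the call of RPS27 was lost without either untreated library (0.36 and 0.31) or without the second irradiated one (0.24).

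**Figure D4:**
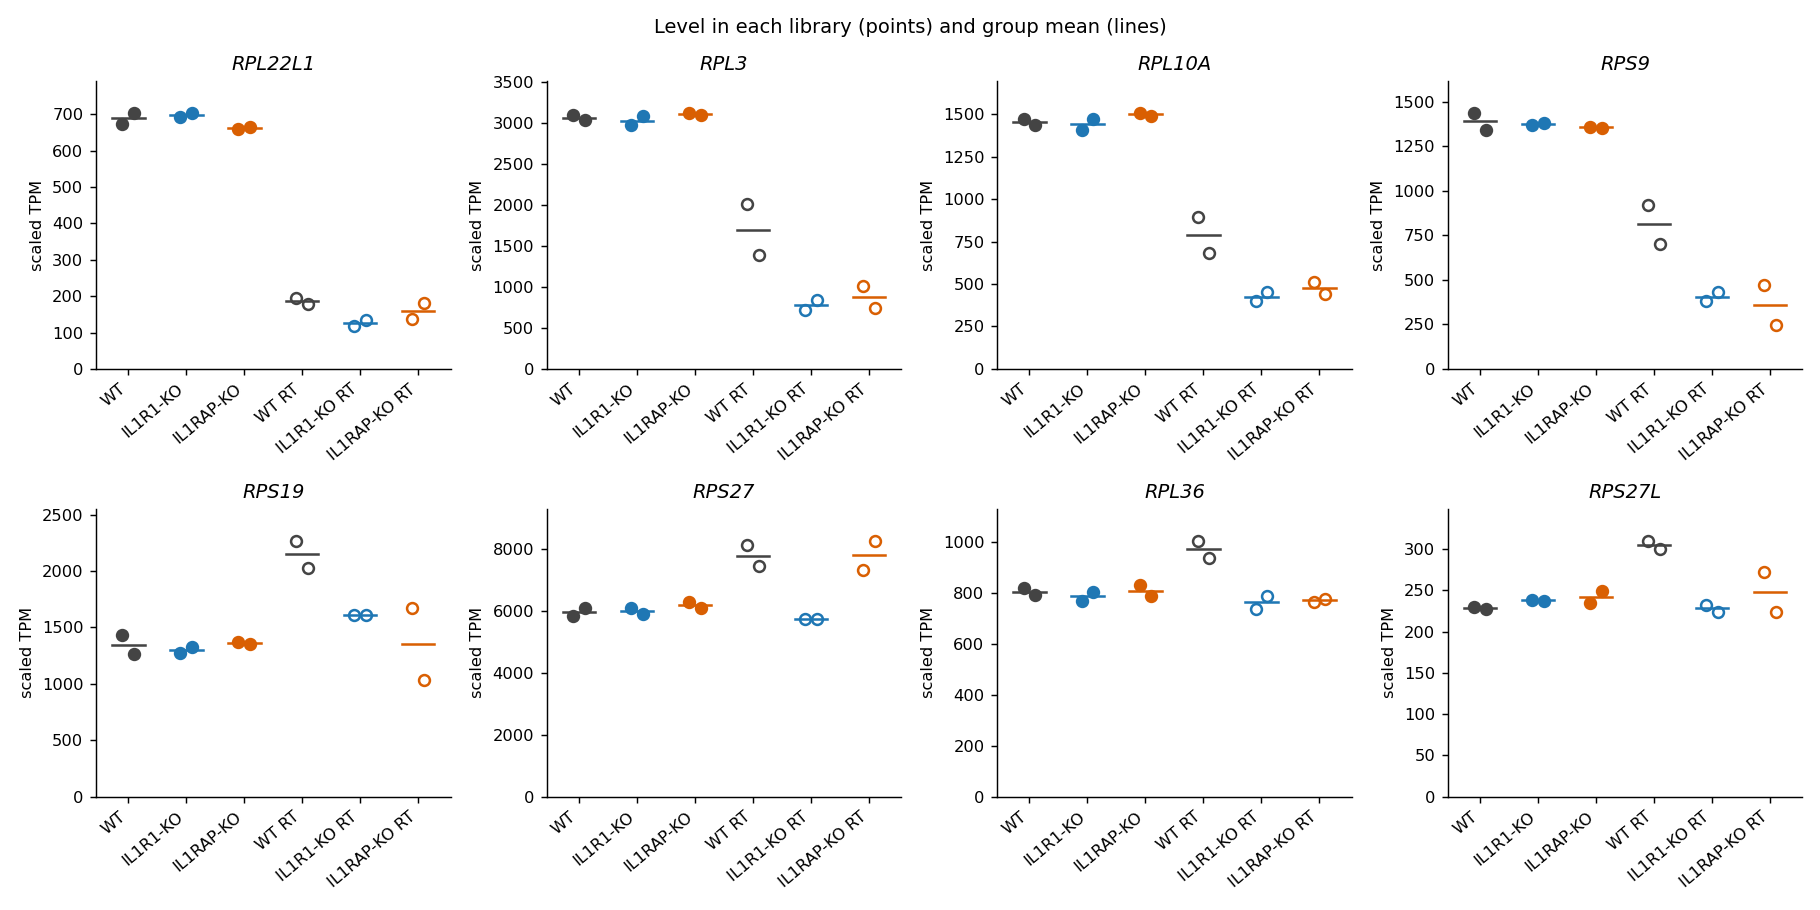
Scaled TPM in each library (points) and group mean (lines) for the 4 genes that fell most (top row) and the 4 that rose in WT (bottom row), each axis starting at 0. RPL3 runs from 2968 to 3117 untreated to 715 and 834 in IL1R1-KO RT, while RPS27 stays at 5728 scaled TPM or more in every library.

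These differences changed the make-up of the set, which was tested after subtracting the mean log2 of the canonical genes in each library. On that scale, 16 genes were higher and 18 lower in WT after RT, 22 and 19 in IL1R1-KO, and 24 and 21 in IL1RAP-KO. Of all genes tested, 27.4%, 69.5% and 61.7% were higher and 11.8%, 4.83% and 6.63% lower on the same scale, which follows the fall of the set. The counts in WT were 6 higher and 11 lower without WT replicate 2, with 9 higher without WT replicate 1 and 26 without either IL1RAP-KO RT library, and the higher count in IL1R1-KO was 14 without IL1R1-KO replicate 2 and 12 without IL1R1-KO RT replicate 1. Lower than the rest of the set in all 3 genotypes were 12 genes, RPL3, RPL5, RPL7, RPL10, RPL10A, RPL22L1, RPL35A, RPS2, RPS7, RPS9, RPS23 and RPS26 (4% of all genes). Higher in all 3 were 9 genes (25.7% of all genes), among them RPL36, RPL37, RPL37A, RPLP2, RPS18, RPS19, RPS27 and RPS27L. As a ratio to the set mean, RPL3 went from 1.64 to 1.70 untreated to 1.21 and 0.993 in WT RT, 0.742 and 0.810 in IL1R1-KO RT and 0.843 and 0.727 in IL1RAP-KO RT. RPS27 went the other way, from 3.21 to 3.41 untreated to 4.89 and 5.33 in WT RT, 5.94 and 5.55 in IL1R1-KO RT and 6.13 and 8.11 in IL1RAP-KO RT. Its mRNA made up 3.82% to 4.04% of the TPM of the set before irradiation and 5.72% to 8.82% after it. The log2 changes relative to the set were -0.63, -1.10 and -1.10 for RPL3 and 0.63, 0.80 and 1.07 for RPS27, and each passed the test.

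The responses of the genes correlated between genotypes. Across the 77 canonical genes, the log2 fold changes of RT correlated at Pearson's r = 0.931 between WT and IL1R1-KO, 0.814 between WT and IL1RAP-KO and 0.858 between the KO lines, which share no library in these contrasts. Over all genes tested the same r was 0.794, 0.802 and 0.863. Spearman's coefficient was 0.925, 0.805 and 0.833 in the set and 0.783, 0.784 and 0.836 over all genes. Between the KO lines neither coefficient of the set was above that of all genes. Genes are not independent replicates, and the points of each contrast share their 4 libraries. The SD over the 77 changes was 0.312, 0.391 and 0.415, against 0.777, 0.828 and 0.835 over all genes tested.

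Among other canonical genes named for their level or response, RPL10, which joins the large subunit late in its maturation, was at 2221 to 2394 scaled TPM untreated, 1593 and 1331 in WT RT, 871 and 950 in IL1R1-KO RT and 1046 and 568 in IL1RAP-KO RT. Every irradiated library was below every untreated one, and RPL10 fell by log2 0.68, 1.34 and 1.61. The call in WT (limma adjusted p = 0.032) was lost without any of the 4 libraries compared, at -0.80 to -0.54. RPS18, in the head of the small subunit, was at 3210 to 3370 untreated, 3894 and 3352 in WT RT, 2308 and 2571 in IL1R1-KO RT and 2892 and 2207 in IL1RAP-KO RT. The KO RT libraries lay below the untreated range, which the WT RT libraries overlapped. RPS18 fell in IL1R1-KO and IL1RAP-KO by 0.44 and 0.41, and its change of 0.16 in WT did not pass. RPL36A, of the large subunit, was at 1112 to 1227 untreated, 1235 and 993 in WT RT, 783 and 803 in IL1R1-KO RT and 1030 and 1317 in IL1RAP-KO RT. The IL1R1-KO RT pair lay below all others, and the WT RT and IL1RAP-KO RT pairs on either side of the untreated range. RPL36A fell in IL1R1-KO by 0.60, while the changes of -0.03 in WT and -0.01 in IL1RAP-KO did not pass.

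The stalk, which recruits the GTPase factors of translation, fell in the KO lines and passed no test in WT. RPLP0, its base, was at 2630 to 2858 scaled TPM untreated, 2270 and 1750 in WT RT, 1176 and 1232 in IL1R1-KO RT and 1502 and 980 in IL1RAP-KO RT. No irradiated library reached the untreated range. In WT none of RPLP0, RPLP1 and RPLP2 passed the test, with log2 fold changes of -0.49, 0.05 and 0.14. In the KO lines all 3 fell, by 1.17, 0.57 and 0.47 in IL1R1-KO and by 1.20, 0.87 and 0.34 in IL1RAP-KO.

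The 5 proteins best known to bind MDM2 were followed whatever their values. RPL5, which carries 5S rRNA with RPL11, was at 1676 to 1761 scaled TPM untreated, 1221 and 976 in WT RT, 644 and 695 in IL1R1-KO RT and 843 and 806 in IL1RAP-KO RT. All irradiated libraries were lower than all untreated ones, and RPL5 fell by 0.62, 1.35 and 1.09. RPL11 was at 1608 to 1751 untreated, 1571 and 1340 in WT RT, 875 and 1011 in IL1R1-KO RT and 1215 and 1449 in IL1RAP-KO RT. These irradiated libraries too were below all untreated ones, narrowly so in WT RT replicate 1. Its change of -0.21 in WT did not pass the test, and it fell in IL1R1-KO by 0.83 and in IL1RAP-KO by 0.36. Relative to the set, the changes were -0.38, -0.49 and -0.35 for RPL5 and 0.03, 0.04 and 0.38 for RPL11, and the difference between both genes was not tested.

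RPL23, of the large subunit, was at 2021 to 2193 scaled TPM untreated, 2165 and 1880 in WT RT, 1299 and 1409 in IL1R1-KO RT and 1672 and 1848 in IL1RAP-KO RT, with -0.04 in WT, which did not pass, and falls of 0.66 and 0.29. RPS7, of the small subunit, was at 1694 to 1794 untreated, 1190 and 994 in WT RT, 695 and 704 in IL1R1-KO RT and 871 and 698 in IL1RAP-KO RT, and fell by 0.67, 1.34 and 1.15. RPS27A, made as a fusion with ubiquitin, was at 1555 to 1665 untreated, 1322 and 1135 in WT RT, 760 and 803 in IL1R1-KO RT and 892 and 799 in IL1RAP-KO RT, and fell by 0.38, 1.04 and 0.97. For RPS7 and RPS27A the irradiated and untreated libraries did not overlap, and for RPL23 the WT RT libraries did overlap the untreated ones. Of the 5, 3 fell in WT and all 5 in each KO line, where the set gave 29, 75 and 72 of 82 and all genes 23.7%, 26.1% and 27.3%. The fall of RPS27A in WT was not called without WT replicate 1 (-0.34) or WT RT replicate 2 (-0.26). In IL1RAP-KO the calls of RPL11 and RPL23 were lost without the first untreated library of that line (-0.39 and -0.28), the second (-0.32 and -0.28) or the first irradiated one (-0.23 and -0.21), and that of RPL23 also without either untreated WT library (-0.28 each). With nuclear protein-coding scaling, RPL11 stood at 0.05 and RPL23 at 0.12 there.

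The paralogs did not move together. RPS27L, a paralog of RPS27 known as a p53 target, was at 228 to 249 scaled TPM untreated, 310 and 300 in WT RT, 233 and 224 in IL1R1-KO RT and 273 and 224 in IL1RAP-KO RT. The WT RT pair was above all untreated libraries and the KO RT pairs were not. RPS27L rose in WT by 0.42 ± 0.09 (limma adjusted p = 0.0044), and its changes of -0.06 and 0.03 in IL1R1-KO and IL1RAP-KO did not pass. Relative to the set it was higher in each genotype, by 0.66, 0.81 and 0.77. With nuclear protein-coding scaling its change in IL1R1-KO was 0.42, and with deposited TPM that in IL1RAP-KO was -0.31.

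RPL7L1, a paralog of RPL7 with a role in ribosome assembly, was at 97.2 to 107 scaled TPM untreated, 98.9 and 90.6 in WT RT, 76.8 and 82.9 in IL1R1-KO RT and 84.5 and 91.5 in IL1RAP-KO RT. KO RT libraries lay below the untreated range and WT RT libraries overlapped it. RPL7L1 fell by 0.33 and 0.24 in the KO lines, and -0.09 in WT did not pass. RPL7 was at 2203 to 2490 untreated, 1725 and 1255 in WT RT, 888 and 981 in IL1R1-KO RT and 1293 and 1115 in IL1RAP-KO RT. Its irradiated libraries were all below the untreated ones, and it fell by 0.65, 1.35 and 0.99. The call of RPL7L1 in IL1R1-KO was lost without IL1R1-KO replicate 2 (-0.28) or IL1R1-KO RT replicate 1 (-0.25), and that in IL1RAP-KO without any of 8 libraries (-0.27 to -0.18), and with nuclear protein-coding scaling the values in the KO lines were 0.15 and 0.17.

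RPL26L1 was at 94.3 to 120 scaled TPM untreated, 80.9 and 81.6 in WT RT, 84.6 and 86.4 in IL1R1-KO RT and 87.4 and 109 in IL1RAP-KO RT, and none of its 3 changes (-0.30, -0.31 and -0.10) passed the test. It passed in WT without IL1R1-KO replicate 1 or IL1R1-KO replicate 2 (-0.29 each), IL1RAP-KO RT replicate 1 (-0.29) or IL1RAP-KO RT replicate 2 (-0.30), and in IL1R1-KO without IL1R1-KO replicate 2 (-0.47), IL1RAP-KO RT replicate 1 or IL1RAP-KO RT replicate 2 (-0.31 each). RPL26, its near-identical partner, was at 2943 to 3130 untreated, 3078 and 2464 in WT RT, 1940 and 2022 in IL1R1-KO RT and 2502 and 3141 in IL1RAP-KO RT. Of these, the IL1R1-KO RT pair alone lay wholly below the untreated range, and RPL26 fell in IL1R1-KO by 0.63. The other changes of RPL26, -0.13 in WT and -0.16 in IL1RAP-KO, did not pass. How reads were divided between such pairs was not given in the sources used here, so values of close paralogs are uncertain.

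RPL39L was at 0.415 to 1.38 scaled TPM untreated and at 0 to 0.589 after RT, so it passed the filter through untreated libraries alone, with 1 WT RT and 1 IL1R1-KO RT library listed at 0. It had to be higher there to be tested, so its log2 fold change of -0.91 in IL1R1-KO, counted among the 75 lower genes, supports nothing. That call (limma adjusted p = 0.019) was not called without IL1R1-KO replicate 1 (-0.85), IL1R1-KO replicate 2 (-0.95) or IL1R1-KO RT replicate 1 (-0.61). RPL39, which lines the exit tunnel for the nascent chain, was at 2469 to 2689 untreated, 2896 and 2709 in WT RT, 1773 and 1843 in IL1R1-KO RT and 2194 and 1398 in IL1RAP-KO RT. KO RT libraries were below all untreated ones and WT RT libraries above them. RPL39 fell by 0.51 in IL1R1-KO, a call lost without any of the 4 libraries compared (-0.53 to -0.46), and by 0.61 in IL1RAP-KO, a call lost without IL1RAP-KO replicate 1 (-0.61) or IL1RAP-KO replicate 2 (-0.59). Its change in WT, 0.17, did not pass. RPS4X, the partner of the Y-linked paralogs, was at 1139 to 1178 untreated, 1308 and 968 in WT RT, 639 and 691 in IL1R1-KO RT and 860 and 821 in IL1RAP-KO RT. The WT RT pair lay on either side of the untreated range and the KO RT pairs below it, with a log2 fold change of -0.02 in WT, which did not pass, and falls of 0.81 and 0.49.

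Without irradiation, no difference between either KO line and WT passed the test in the set. None of the 82 genes changed in IL1R1-KO or in IL1RAP-KO against WT in limma, and 0 had an unadjusted p under 0.05 in either. Of all genes, 0.163% and 0.124% were lower and 0.0196% and 0% higher. The log2 differences ran from -0.12 to 0.42 in IL1R1-KO (median 0.01) and from -0.07 to 0.29 in IL1RAP-KO (median 0.04), with RPL39L the highest in each. RPL39L was at 1.19 and 0.44 deposited TPM in WT, 1.44 and 1.31 in IL1R1-KO and 1.03 and 1.35 in IL1RAP-KO. It passed the filter only with the KO libraries, so its place at the top supports nothing. Over the 77 canonical genes the SD of the differences was 0.0474 and 0.0390. The tests used a variance per gene pooled over all 6 groups, so the spread of irradiated libraries entered them. The SD of the log2 ratio of replicates was 0.0460 to 0.0880 in untreated groups and 0.0631 to 0.284 in irradiated ones. The absence of calls is thus no measure of how alike the untreated lines were. With only the compared libraries fitted, 0 genes passed the adjusted test in either line.

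After irradiation, the set was lower in both KO lines than in WT, in comparisons that share the WT RT libraries. In libraries labelled IL1R1-KO RT, 72 of 82 genes were lower and none higher than in WT RT, against 7.59% and 4.65% of all genes, with a median log2 difference of -0.61 and 1 gene past 2-fold (1.95% of all genes). The lower count was 27 without WT RT replicate 1 and 22 without IL1R1-KO RT replicate 1, and it was 11 with TPM as deposited and 27 with nuclear protein-coding scaling. In IL1RAP-KO RT, 53 were lower and none higher, against 9.32% and 5.6% of all genes, with a median of -0.43 and 1 gene past 2-fold (2.08%). That count was 3 without WT RT replicate 1 and 24 without IL1RAP-KO RT replicate 2, and it was 18 with TPM as deposited, 14 with nuclear protein-coding scaling and 0 when the 4 libraries were fitted alone. The genes with the lowest differences were RPL3, RPS9 and RPL10A in IL1R1-KO RT, at -1.11 ± 0.18, -0.99 ± 0.24 and -0.88 ± 0.12, and RPS9, RPL3 and RPL10 in IL1RAP-KO RT, at -1.24 ± 0.24, -0.95 ± 0.18 and -0.92 ± 0.22. The call of RPS9 in IL1R1-KO RT was lost without WT RT replicate 1 (-0.80), IL1R1-KO RT replicate 1 (-0.89) or IL1R1-KO RT replicate 2 (-1.08). In IL1RAP-KO RT the calls of RPS9 (-1.04), RPL3 (-0.69) and RPL10 (-0.79) were lost without WT RT replicate 1, that of RPL3 also without IL1RAP-KO RT replicate 2 (-0.73) and that of RPL10 also without WT RT replicate 2 (-1.05).

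**Figure D5:**
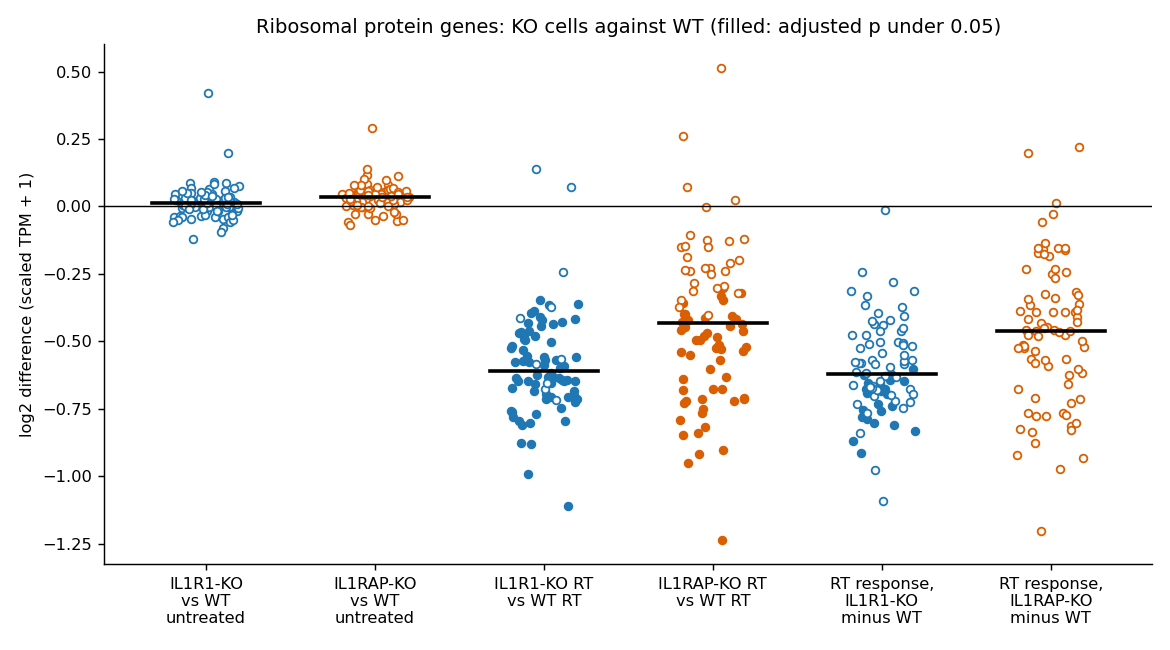
Log2 difference between KO and WT for each of the 82 genes tested (points, filled at an adjusted p under 0.05, spread sideways for visibility) with the median as a line, untreated, after RT, and as the difference of the RT responses. Untreated medians are 0.01 and 0.04, and those after RT are -0.61 and -0.43.

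Whether irradiation acted differently in KO cells was tested as the difference between the RT responses. In IL1R1-KO, 23 genes fell further than in WT and none less, against 2.01% and 0.804% of all genes, and the median difference was -0.62. None of these passed 2-fold, against 0.954%. Over all genes tested, the median of this difference was -0.02. In IL1RAP-KO none passed the test in limma, where 1.06% of all genes were called lower and 0.301% higher. The median difference of the set there was -0.46. The lowest called in IL1R1-KO were the small subunit genes RPS15A and RPS24 with RPL10A. RPS15A was at 2076 to 2156 scaled TPM untreated, 1760 and 1420 in WT RT, 813 and 910 in IL1R1-KO RT and 1169 and 1092 in IL1RAP-KO RT. RPS24 was at 3136 to 3314 untreated, 3622 and 3110 in WT RT, 1832 and 2000 in IL1R1-KO RT and 2577 and 2870 in IL1RAP-KO RT. Both genes were below the untreated range in all KO RT libraries, and RPS24 lay on either side of it in WT RT. The differences of response of RPS15A, RPS24 and RPL10A were -0.91 ± 0.15, -0.83 ± 0.14 and -0.87 ± 0.18 (limma adjusted p 0.013, 0.015 and 0.034). RPL3 had the lowest value, -1.09 ± 0.25, which did not pass (limma adjusted p = 0.052).

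These calls rested on few libraries. The IL1R1-KO count was 0 without WT replicate 1, WT replicate 2 or IL1R1-KO RT replicate 1, it was 1 to 6 without IL1R1-KO replicate 1 or 2, IL1RAP-KO replicate 1 or 2, WT RT replicate 1 or IL1R1-KO RT replicate 2, and it was 43, 65 and 64 without WT RT replicate 2, IL1RAP-KO RT replicate 1 and IL1RAP-KO RT replicate 2. The IL1RAP-KO count was 7 without WT RT replicate 2 and 46 without IL1RAP-KO RT replicate 1. With TPM as deposited the IL1R1-KO count was 0, and the median of the set was -0.32 beside a median of all genes of 0.23. RPS15A lost its call without WT replicate 1 (-0.88), WT replicate 2 (-0.92), IL1R1-KO replicate 1 (-0.91) or IL1R1-KO RT replicate 1 (-0.82), RPS24 without these (-0.80, -0.85, -0.79 and -0.76) or WT RT replicate 1 (-0.72), and RPL10A without any of 9 libraries (-0.95 to -0.67). Relative to the mean of the set, RPL3 alone differed in IL1R1-KO (-0.47 ± 0.16, limma adjusted p = 0.0435) and no gene in IL1RAP-KO, where 0.699% and 0.359% of all genes were lower and 28.7% and 2.59% higher on that scale.

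Gene structure was set beside the response as a description. The 86 genes lie on 22 chromosomes, 12 of them on chromosome 19, and 28 canonical genes hold at least 1 annotated snoRNA. Across the 77 canonical genes the change after RT went down with the number of exons (Spearman's coefficient -0.36 in WT, -0.45 in IL1R1-KO and -0.34 in IL1RAP-KO). The coefficient with the number of processed or other pseudogenes named for the gene was -0.35, -0.41 and -0.25. With the mean level in untreated cells it was -0.172, -0.165 and -0.0553. With canonical transcript length it was -0.243, -0.279 and -0.155, where Pearson's r was 0.049, 0.0555 and 0.135. Over 98 other genes at least as abundant as the lowest canonical member, Spearman's coefficient with length was -0.278, -0.265 and -0.217. Genes that hold a snoRNA had median log2 fold changes of -0.31, -0.91 and -0.78 (n = 28) and the others -0.22, -0.86 and -0.73 (n = 49). These points share libraries and depth, and such features of a gene can bear on how reads are assigned. The 1266 pseudogenes named for the set held 0.391% to 0.470% of its TPM in every library. Canonical genes with a pyrimidine run at the start had median log2 fold changes of -0.16, -0.77 and -0.72 (n = 46), and those without had -0.41, -0.96 and -0.80 (n = 16), with wide overlap.

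Ribosomal proteins outside the symbol rule also fell in the KO lines. FAU and RPL36AL fell in both KO lines, FAU by 0.52 and 0.85 and RPL36AL by 0.68 and 0.38. RACK1, a scaffold on the small subunit, fell by 1.23 in IL1R1-KO and 1.30 in IL1RAP-KO. Other genes with a 5′ TOP mRNA gave 5, 6 and 5 lower of 6 in WT, IL1R1-KO and IL1RAP-KO, against 23.7%, 26.1% and 27.3% of all genes tested. HNRNPA1 fell by 1.64, 2.45 and 2.18 and NPM1, the nucleolar chaperone of ribosome assembly, by 1.62, 2.19 and 1.89. EEF1A1, which delivers aminoacyl-tRNA, fell by 1.02 and 0.71 in the KO lines, while -0.27 in WT did not pass the test. Elongation factors as a list gave 3, 6 and 5 lower and 0, 1 and 1 higher of 9, in WT near the share of all genes.

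Most genes of the machinery that builds ribosomes were lower in WT as well. Of 45 ribosome biogenesis factors, 34, 37 and 37 were lower and 0, 1 and 2 higher (all genes 23.7%, 26.1% and 27.3% lower and 19.8%, 22% and 22.7% higher), with medians of -0.63, -0.83 and -0.81, where the ribosomal protein genes had -0.25, -0.86 and -0.73. NCL, or nucleolin, fell by 1.29, 1.65 and 1.37, MRTO4, which helps assemble the stalk, by 1.19, 1.47 and 1.41, and NHP2, a core box H/ACA protein, by 0.99, 1.30 and 1.46. RNA polymerase I and III genes gave 16, 16 and 15 lower of 18, and initiation factors 22, 23 and 25 lower of 31. Among the latter EIF4A1 fell by 0.99, 1.57 and 1.62 and its paralog EIF4A2 rose by 0.99, 0.71 and 0.85.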

How the data were processed

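RNA of the 12 libraries was sequenced by the authors as paired reads from stranded total RNA libraries made after rRNA depletion. Per their notes, reads were trimmed with cutadapt 1.15, aligned with STAR 2.5.3a and counted with HTSeq against an Ensembl annotation. The deposited values are TPM per gene, computed by the authors before deposit, and the 12 single-library tables equal the columns of the combined table. TPM keeps no depth, so no counting interval is given. The deposited TPM were rescaled between libraries by trimmed means (30% of ratios and 5% of levels trimmed at each end), 1 was added, and log2 values were fitted in limma 3.58.1 (R 4.3.3) over 15303 genes with at least 1 TPM in at least 2 libraries, with 1 term per group, a variance trend and all 12 libraries (6 residual degrees of freedom). A fold change on this scale understates that of low genes. An adjusted p under 0.05 (Benjamini-Hochberg over all genes tested) was a call. Changes relative to the set were fitted after subtracting the mean log2 of the 77 canonical genes. Fold changes and tests were checked on simulated data in which a gene had the same spread in every library. Unequal spread between groups, as seen in IL1RAP-KO RT, was not covered by that check. Summaries used Python 3.11.15 with pandas 2.3.3.

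Members given in every library were the 4 highest and lowest called in each RT comparison, on either scale, the 3 highest and lowest called in each KO comparison or difference of responses, the 3 highest and lowest mean levels, paralogs with their partners, and the MDM2 binders. Of other lists, up to 3 called genes with the smallest adjusted p and 1 other with the highest mean could be named. Members, lists and scaling were chosen with earlier results of these data known. No source says that the replicates of a group came from separate cultures beyond the word biological, and p-values measure the spread between these libraries. Replicate numbers are not known to pair the libraries. Deviations of same-numbered libraries correlated at -0.0614 to 0.0949 over 15 pairs of groups, which cannot exclude a shared culture or preparation. Positions and gene structure came from GENCODE release 44, and start sequences from RefSeq (GRCh38.p14). Results for some genes are not reported here.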

Additional observations from a re-analysis of the deposited data

Results flagged for a closer look

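The response to irradiation differed between WT and the libraries labelled IL1R1-KO by a test of the difference itself for 23 of the 82 ribosomal protein genes, all lower, against 2.01% of all genes tested. That count was 0 without WT replicate 1, WT replicate 2 or IL1R1-KO RT replicate 1 and 0 with TPM as deposited, 4 with nuclear protein-coding scaling and 13 with the replicate number as a block. Named among them were RPS15A at -0.91, RPL10A at -0.87 and RPS24 at -0.83 on the log2 scale. Relative to the mean of the set, RPL3 alone of the 82 genes differed, at -0.47. On that scale 0.699% of all genes tested were lower and 28.7% higher.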

How the results depend on the processing

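With 2 libraries per group and no depth, calls near the threshold turned on single libraries. Lowest and highest values when 1 library was left out were 2 to 5 higher and 18 to 40 lower in WT after RT (median -0.38 to -0.10), 0 to 1 higher and 67 to 78 lower in IL1R1-KO, and 0 to 1 higher and 58 to 73 lower in IL1RAP-KO (median -0.85 to -0.58). Relative to the set they were 6 to 26 higher and 11 to 23 lower in WT and 12 to 30 higher in IL1R1-KO. Between KO RT and WT RT they were 22 to 79 lower in IL1R1-KO (median -0.73 to -0.48) and 0 to 1 higher and 3 to 56 lower in IL1RAP-KO (median -0.56 to -0.32), and for the difference of responses 0 to 65 in IL1R1-KO and 0 to 46 in IL1RAP-KO.

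With TPM as deposited, WT gave 0 higher and 51 lower (median -0.52) and IL1RAP-KO 0 higher (median -1.07), the untreated median of IL1R1-KO against WT was -0.012 in place of 0.012, IL1R1-KO RT against WT RT gave 11 lower (median -0.33), IL1RAP-KO RT against WT RT 18 lower, and the difference of responses in IL1R1-KO 0. With nuclear protein-coding scaling, WT gave 7 higher (median -0.14), IL1R1-KO 4 higher and 49 lower (median -0.38), IL1RAP-KO 6 higher and 46 lower (median -0.32), IL1R1-KO RT against WT RT 1 higher and 27 lower (median -0.24), IL1RAP-KO RT against WT RT 3 higher and 14 lower (median -0.14), and the difference of responses in IL1R1-KO 4. Without a filter, 10 genes were higher relative to the set in WT, 0 higher in IL1RAP-KO, 23 lower in IL1RAP-KO RT against WT RT, and 5 in the difference of responses of IL1R1-KO. With a fold of 2 required, WT had 0 higher and 1 lower (0 and 1 relative to the set), IL1R1-KO 26 lower (1 higher and 2 lower relative to the set), IL1RAP-KO 0 higher and 18 lower (1 higher and 3 lower relative to the set), each KO RT comparison 1 lower, and the difference of responses 0. With only the compared libraries fitted, IL1R1-KO had 1 higher, IL1RAP-KO 0 higher and 11 lower relative to the set, and IL1RAP-KO RT against WT RT 0 lower. Median-of-ratios scaling, a pseudocount of 0.1 and centring on the median of the set moved no count by over 1.5 times. With the replicate number as a block, the count of the difference of responses in IL1R1-KO was 13 in place of 23, and no other count moved by over 1.5 times. The numbers are not known to pair the libraries.

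Signs turned with nuclear protein-coding scaling for RPL7L1 (0.033 in WT, 0.15 in IL1R1-KO and 0.17 in IL1RAP-KO), RPL26L1 (0.17 in IL1R1-KO and 0.31 in IL1RAP-KO), RPL23 (0.082 in WT and 0.12 in IL1RAP-KO), RPS4X in WT (0.10), RPS27L and RPS27 in IL1R1-KO (0.42 each), and RPL26 and RPL11 in IL1RAP-KO (0.25 and 0.049). With deposited TPM they turned for RPL39 in WT (-0.10) and for RPS27 and RPS27L in IL1RAP-KO (-0.018 and -0.31). In WT, RPS4X was at 0.018 and RPL23 at 0.0046 with median-of-ratios scaling, and at 0.014 and 0.00066 with only the compared libraries fitted. Leaving out 1 library gave ranges of -0.29 to 0.035 for RPL26, -0.24 to 0.20 for RPS4X and -0.13 to 0.070 for RPL23 in WT, and of -0.25 to 0.065 for RPL26L1, -0.32 to 0.010 for RPL26 and -0.10 to 0.17 for RPS27L in IL1RAP-KO. The cause of these shifts was not tested.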

Other observations

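Most mRNAs of mitochondrial ribosomal proteins, which serve to translate the mitochondrially encoded mRNAs, fell after irradiation in every genotype. Of 78 genes, 67, 64 and 66 were lower and 1, 0 and 1 higher in WT, IL1R1-KO and IL1RAP-KO, with medians of -0.65, -0.78 and -0.76 on the log2 scale, where 23.7%, 26.1% and 27.3% of all genes tested were lower. Of the 13 mitochondrially encoded mRNAs, 12, 11 and 13 rose and none fell, with medians of 1.10, 0.93 and 1.71. Across all genes tested, 19.8%, 22% and 22.7% rose. These mRNAs belong to the mitochondrial share of TPM that was higher in the same irradiated libraries. Between KO RT and WT RT, 14 and 11 of the 78 were lower in IL1R1-KO and IL1RAP-KO, against 7.59% and 9.32% of all genes. The cytosolic genes gave 72 and 53 of 82 there, or 11 and 18 with TPM as deposited, and 0 in IL1RAP-KO with only the compared libraries fitted.

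Of 11 snoRNA host genes with a start sequence, 3 (27.3%) had a pyrimidine run there, against 5.14% of all such genes. The snoRNA host genes gave 8, 7 and 9 lower and 1, 2 and 2 higher of 13. Of all genes tested, 23.7%, 26.1% and 27.3% were lower and 19.8%, 22% and 22.7% higher. GAS5, a host gene whose transcript is removed by translation-dependent decay, rose by 0.58, 0.86 and 0.69 on the log2 scale, and SNHG1 changed by -0.85, -0.31 and -0.66. Of 11 factors of ribosome quality control and release, 6, 8 and 6 were lower, against the same shares, and ABCE1, which splits the subunits after termination, fell by 0.83, 0.88 and 0.85. POLR3G, a subunit of RNA polymerase III, fell by 1.66, 1.74 and 1.35.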
